A study of Mus musculus with 19 samples.

Results

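Hivep1, Hivep2 and Hivep3 are the 3 mouse genes for the Schnurri proteins, and they were followed here by name as 3 of the 28692 genes counted in single thymocytes. The family was chosen by a measured value of the same cells: the level of Hivep3 in double-positive (DP, CD4+CD8+) cells that had received a T cell receptor (TCR) signal. The stage pattern of Hivep3 is therefore given as a description with no test. Hivep1 and Hivep2 entered only as relatives of Hivep3, and the comparisons of lineages were tested for all 3 genes.

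The study sorted or took whole thymocytes from 17 female mice aged 4 to 8 weeks and read mRNA and 111 surface proteins from the same cells (CITE-seq), in order to follow DP cells as they become CD4 or CD8 T cells. The 5 wild-type mice were C57BL/6 (B6), and the other 12 mice, 2 of each of 6 genotypes, make T cells of 1 lineage for the most part. CD4-fated thymocytes came from mice with an AND or OT-II TCR transgene and from MHCI-/- mice, which lack B2m. CD8-fated thymocytes came from mice with an F5 or OT-I TCR transgene and from MHCII-/- mice, which lack H2-Ab1. The AND and F5 mice also lacked Rag1, so that the transgene supplied their only receptor, whereas the MHC-deficient mice had diverse receptors. Cells of 3 wild-type mice and of the 4 MHC-deficient mice were sorted for surface CD5 and TCRβ before capture, and the other mice, 2 wild-type mice among them, were captured unsorted. The mice were processed in 3 experiments, here named ZRS06, ZRS07 and ZRS08 as in the labels. Both OT genotypes and both unsorted wild-type mice were in ZRS08 alone, so that experiment cannot be told apart from OT family or, in wild-type mice, from sorting.

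The Schnurri proteins are very large nuclear proteins with pairs of C2H2 zinc fingers that bind κB-like DNA sequences. The founding member, fly schnurri, acts with Smad proteins downstream of the BMP-like ligand Dpp. Hivep1 was found as a protein that binds the PRDII element of the interferon-β promoter. Hivep2, or Schnurri-2, binds κB sites in competition with NF-κB and is needed in thymocytes for efficient positive selection, the step at which DP cells with a useful receptor survive. Hivep3, or Schnurri-3, binds the adaptor Traf2 and the AP-1 subunit c-Jun and is best known as a regulator of bone formation.

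The 3 genes lie on different chromosomes of the GRCm38 genome, all on the plus strand. Hivep1 (ENSMUSG00000021366) spans chr13:42052021-42192537, Hivep2 (ENSMUSG00000015501) chr10:13966075-14151374 and Hivep3 (ENSMUSG00000028634) chr4:119733784-120138045. Reads from the 3′ kit mark strand, and the antisense gene Gm28289, which lies across the last exon of Hivep2 on the minus strand, is counted as a gene of its own. In the GENCODE annotation AL607142.1 lies inside Hivep3 on the plus strand, away from its last exon. AL607142.1 is not among the genes counted. The 250 bases before the RefSeq start (GRCm38.p6) are shown for Hivep2 and Hivep3 because these were the members with a higher level in signaled cells. Capitals mark κB motifs, searched as GGGNNNNNCC on both strands.
Hivep2: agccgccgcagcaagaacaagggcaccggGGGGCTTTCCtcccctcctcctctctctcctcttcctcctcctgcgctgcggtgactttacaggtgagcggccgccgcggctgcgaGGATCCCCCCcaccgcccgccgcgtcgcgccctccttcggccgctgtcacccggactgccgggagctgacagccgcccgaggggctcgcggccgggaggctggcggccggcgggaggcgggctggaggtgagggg
Hivep3: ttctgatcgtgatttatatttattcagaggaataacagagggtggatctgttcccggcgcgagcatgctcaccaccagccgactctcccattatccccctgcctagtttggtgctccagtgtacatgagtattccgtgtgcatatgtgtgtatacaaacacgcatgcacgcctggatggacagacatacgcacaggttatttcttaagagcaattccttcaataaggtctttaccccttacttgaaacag

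The Hivep2 window lies at chr10:13966129-13966378 and holds 2 κB matches, and the Hivep3 window lies at chr4:119814428-119814677 and holds none. Both windows end at the start used by RefSeq and lie inside the gene as the GENCODE annotation draws it. They lie inside it by 54 to 303 bases for Hivep2 and by 80644 to 80893 bases for Hivep3. Other starts of Hivep3 were not analysed here. In the window of Hivep1 at chr13:42051771-42052020 there were 3 κB matches and 1 match to an Egr motif, searched as GCGNGGGCG on both strands. No member held an AP-1 motif, searched as TGANTCA. Of 32851 promoters of this length, 45.8% held the κB letters, 4.70% the Egr letters and 6.75% the AP-1 letters. G and C made up 88.4% of the Hivep1 window, 75.2% of the Hivep2 window and 46.4% of the Hivep3 window, against a median of 52.4% over all promoters.

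After filters on RNA and protein content, 72054 of 85389 barcodes from 19 lanes were kept, and 69148 cells were left once called doublets were removed. Lane totals ran from 9893333 to 43303999 RNA UMIs, and the median cell of a lane held between 1519 and 7259 UMIs. The lowest medians, 1519 and 1579, were those of the 2 lanes of wild-type mouse 5. Lanes shared at most 15 barcodes, and no more than 0.432% of the cells of the smaller lane. Stages were gated on surface protein alone, with a threshold set in each lane, and the UMIs of a gate were summed for each mouse and expressed as CPM, the UMIs of a gene per 1000000 RNA UMIs of that gate and mouse. In such sums, fewer cells that express a gene and less RNA per cell cannot be told apart. Gene labels fitted the gates: the recombination gene Rag1 was highest in CD69- DP, the TCR target Itm2a in the 3 CD69+ gates, Zbtb7b (ThPOK) in the CD4 gates, and the exit receptor S1pr1 in the mature gates.

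Among the protein gates, Hivep3 was highest in DP cells that had received a TCR signal. In the 5 wild-type mice its level in CD69- DP, which also lack CD127, was 64.8, 81.9, 36.3, 41.0 and 69.7 CPM for mice 1 to 5. This gate did not hold cells before a signal alone. By RNA cluster, 8878 of its 17901 cells over all mice were quiescent DP-like, 3107 cycling-like and 1235 signaled DP-like. In CD69+ DP cells without CD127, the cells early after a signal, the same mice had 205, 215, 283, 341 and 416 CPM. All 5 values lay above the highest CD69- DP value, and the mean went from 58.7 ± 19.5 to 292 ± 88.5 CPM (SD, n = 5).

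In CD69+CD127+ DP cells Hivep3 was at 114, 133, 96.8, 288 and 375 CPM. The study places such cells, where TCRβ is also high, on the way to CD8 cells. In the CD69+ CD4+CD8lo gate the values were 62.5, 68.6, 50.8, 107 and 137 CPM. This gate took all CD4+CD69+ cells with CD8a below the threshold, with or without CD127. It therefore also held semimature CD4 cells, which the study separates. Both gates were below CD69+ DP in 5 of 5 mice, and the CD4+CD8lo gate did not overlap it. CD8 semimature cells, which keep CD69 and CD127 but have lost CD4, were at 40.8, 53.5, 46.3, 77.8 and 103 CPM, with a mean of 64.4 ± 26.0. Mature cells were lowest, with a mean of 31.0 ± 21.3 CPM in CD4 mature and 43.0 ± 30.1 CPM in CD8 mature cells (SD, n = 5). The order of Hivep3 in wild-type mice, from high to low, was thus CD69+ DP, CD69+CD127+ DP, CD4+CD8lo, CD8 semimature, CD69- DP, CD8 mature and CD4 mature, and the ranges of each neighboring pair overlapped. Mouse 5, which had the shallowest lanes, held the highest Hivep3 value in every one of these gates but CD69- DP. The unsorted mice, both of ZRS08, were above all sorted mice in the same gates. Means of sorted and unsorted mice were 234 and 379 CPM in CD69+ DP and 115 and 332 CPM in CD69+CD127+ DP. The parts of depth, sorting and experiment in this were not tested.

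**Figure D1:**
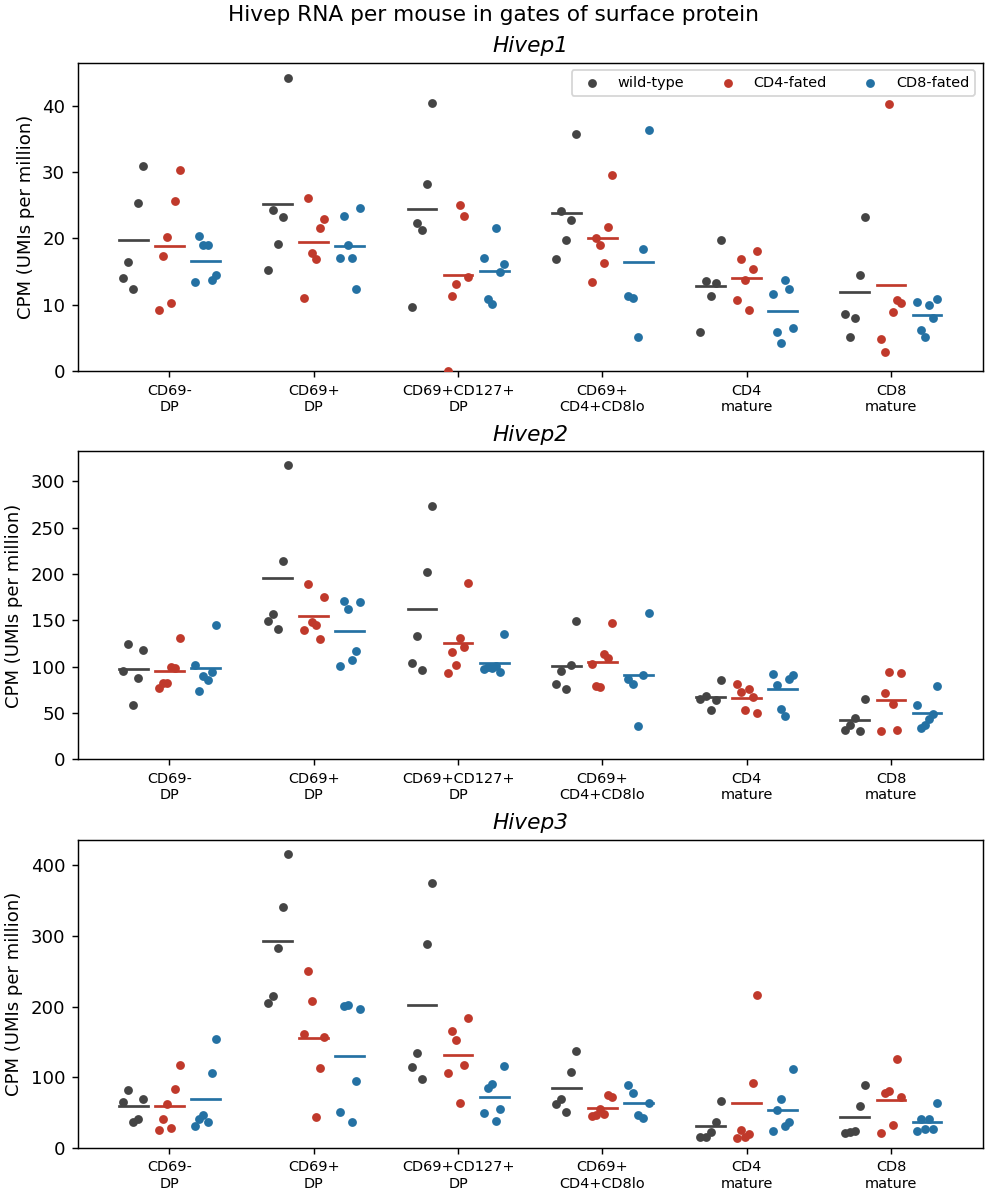
Level of Hivep1, Hivep2 and Hivep3 in 6 protein gates (x axis), in CPM on the y axis. Each point is 1 of 17 mice, colored by wild-type, CD4-fated or CD8-fated group, and each bar is the mean of a group; Hivep3 and Hivep2 peak in CD69+ DP, with wild-type means of 292 and 196 CPM, whereas the wild-type mean of Hivep1 stays between 19.8 and 25.2 CPM until the mature gates.

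Over all 17 mice, Hivep3 ran from 24.9 to 155 CPM in CD69- DP, with a median of 46.9, and from 35.9 to 416 CPM in CD69+ DP, with a median of 200.3. It was higher in CD69+ DP in 15 of 17 mice, and the fitted log2 fold change was 1.48. The exceptions were F5 mouse 2, with 36.7 and 35.9 CPM, and OT-I mouse 1, with 106 and 94.4 CPM in the 2 gates. The CD69+ DP level was below the lowest wild-type mouse (205 CPM) in 10 of the 12 lineage-restricted mice, all but the 2 MHCI-/- mice (249.99 and 208 CPM), and it was lowest in F5 mouse 2, AND mouse 2 (43.5 CPM) and F5 mouse 1 (50.6 CPM). These 3 lanes also had the lowest CD69 thresholds, from −0.43 to −0.13 on the centred log-ratio scale against −0.080 to 1.09 in the other lanes, so that their gate took in cells with less CD69. With thresholds pooled by experiment F5 mice 1 and 2 had 56.8 and 89.4 CPM, AND mouse 2 had under 10 cells, and 9 of 11 lineage-restricted mice lay below the lowest wild-type mouse (215 CPM). The later differences were all negative, at −1.30 on the log2 scale from CD69+ DP to CD4+CD8lo (lower in 14 of 16 mice), −1.05 from CD4+CD8lo to CD4 mature (lower in 9 of 11) and −1.32 from CD69+CD127+ DP to CD8 mature (lower in 10 of 11).

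Hivep2 followed the same course with a smaller range. Its wild-type level was 95.7, 124, 59.1, 87.8 and 118 CPM in CD69- DP and 149, 156, 140, 214 and 318 CPM in CD69+ DP. In these sums, which keep all cells of a gate, the 2 gates did not overlap. The share of all genes whose gates did not overlap is not given here. Over all 17 mice the range went from 59.1 to 145 CPM (median 94.6) in CD69- DP to 101 to 318 CPM (median 149) in CD69+ DP. The increase was 0.67 ± 0.09 on the log2 scale (SE) and was seen in 16 of 17 mice (edgeR quasi-likelihood test with mouse as a block, Benjamini-Hochberg adjusted p = 1.54e-06). In this comparison 52.6% of all genes tested passed the same threshold, an adjusted p under 0.05, so that a call is the usual outcome here and does not set Hivep2 apart.

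The size of this step depended on which cells the CD69- DP gate held. Cells of clusters named cycling-like, DN-like, Treg-like or another type made up a median of 22.3% of the cells in the gate and 52.4% of its RNA. Without them the Hivep2 mean in CD69- DP was 140 ± 22.7 CPM against 166 ± 50.1 CPM in CD69+ DP (SD, n = 17), and the change fell to 0.24 ± 0.07 (adjusted p = 0.0123 by edgeR). The Hivep3 means without these cells were 72.8 and 186 CPM.

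Hivep2 then fell at each later step. From CD69+ DP to CD4+CD8lo it went from a median of 153 to 93.5 CPM and was lower in 16 of 16 mice (−0.58 ± 0.09, adjusted p = 5.62e-05 by edgeR, where 31.0% of genes passed). From CD4+CD8lo to CD4 mature it fell from 102 to 66.7 CPM in the median and in 11 of 11 mice (−0.41 ± 0.08, adjusted p = 0.00157, with 21.8% of genes passing). The largest of these steps was from CD69+CD127+ DP to CD8 mature, from a median of 100.5 to 43.4 CPM and again in 11 of 11 mice (−1.26 ± 0.14, adjusted p = 1.42e-06, with 47.0% of genes passing).

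Hivep1 gave no call at the early step. Its wild-type level was 13.95, 16.5, 12.3, 25.4 and 30.9 CPM in CD69- DP and 15.2, 24.3, 19.1, 23.3 and 44.2 CPM in CD69+ DP, and the 2 gates overlapped. Over 17 mice the change was 0.10 ± 0.15 (adjusted p = 0.625 by edgeR), higher in 11 mice, and it was −0.19 without cells of other types. The step to CD4+CD8lo was 0.06 ± 0.12 (adjusted p = 0.764), higher in 8 of 16 mice.

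The decline of Hivep1 came with maturation. From CD4+CD8lo to CD4 mature its median went from 20.1 to 13.5 CPM, and it was lower in 11 of 11 mice (−0.56 ± 0.11, adjusted p = 0.000884 by edgeR). From CD69+CD127+ DP to CD8 mature the median went from 17.02 to 8.57 CPM, also lower in 11 of 11 mice (−0.77 ± 0.13, adjusted p = 0.000149). The CD8 semimature gate lies between these 2, and there wild-type Hivep1 was already at 11.5 ± 4.26 CPM, against 11.9 ± 7.21 CPM in CD8 mature cells (SD, n = 5), higher in the mature cells of 3 of 5 mice. Wild-type Hivep2 was at 54.7 ± 28.5 CPM in CD8 semimature and at 42.0 ± 13.9 CPM in CD8 mature cells.

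Genes of the pathways the Schnurri proteins are tied to moved in the same step. These list values include cells of other types in both gates and are not given without them. The TCR response list also holds Cd69, whose protein sets the gates. Of 20 TCR response genes, 19 had enough counts, and from CD69- DP to CD69+ DP 18 rose and 1, Myb, fell, with a median log2 change of 1.31 against −0.0013 over all genes, of which 25.0% rose and 27.7% fell. Itm2a rose by 2.65 ± 0.22, the nuclear receptor gene Nr4a3 by 4.21 ± 0.34, the Egr co-repressor gene Nab2 by 1.79 ± 0.18 and the pro-apoptotic gene Bcl2l11 by 1.59 ± 0.17. Of 14 NF-κB genes, 11 rose and 2 fell, with a median of 0.63. The NF-κB subunit genes Rel, Relb and Nfkb2 rose by 1.44 ± 0.17, 2.10 ± 0.26 and 1.56 ± 0.20, and the inhibitor gene Nfkbid by 1.71 ± 0.18. Traf2, named here for its tie to Hivep3 after its values were seen, was 1 of the 2 that fell (−0.17 ± 0.07), beside Nfkbie (−0.43 ± 0.09).

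AP-1 subunit genes rose in 5 of 8 cases and none fell. Junb rose by 1.02 ± 0.11 and Fosl2 by 3.14 ± 0.38, whereas Jun, named on the same ground because it codes for c-Jun, stood at −0.12 ± 0.22 and did not pass. In the TGF-β, BMP and SMAD list, 8 of 13 tested genes rose and none fell, with a median of 0.24. These included the receptor gene Tgfbr2 (0.87 ± 0.08), the ligand gene Tgfb1 (0.51 ± 0.06), the SMAD co-repressor gene Skil (0.88 ± 0.11) and Id2 (2.54 ± 0.22), a target of BMP signaling. In the calcineurin and NFAT list, 5 of 10 rose and 2 fell. In the Runx, Gata3 and ThPOK list, 7 of 10 rose and 2 fell, Zbtb7b by 2.94 ± 0.30 and Runx3 by 1.42 ± 0.14 among them.

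In the later steps the TCR response list turned down with Hivep2 and Hivep3. From CD69+ DP to CD4+CD8lo 12 of 19 fell and 1 rose, from CD4+CD8lo to CD4 mature 15 fell and none rose, and from CD69+CD127+ DP to CD8 mature 17 fell and none rose. Of all genes tested, 14.9%, 10.3% and 23.5% fell and 16.1%, 11.6% and 23.5% rose at these 3 steps. The NF-κB list had 2 genes up and 2 down at the first of these steps, 1 up and 8 down at the second and 2 up and 8 down at the third. Of the 12 markers of other cell types, 6 were tested at the CD69 step, where 2 fell, the myeloid genes Lyz2 and Cst3, and none rose.

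The protein data gave a graded view of the same cells. The bins kept cells of clusters named as other types, and their levels are not given without them. In the gates above, removing such cells took the Hivep2 step from 0.67 to 0.24. Within CD4+CD8+CD127- cells, each lane was cut into 5 bins of equal cell number by surface CD69, and Hivep3 went from 49.2 ± 38.7 CPM in the lowest bin to 185 ± 76.5 CPM in the highest (SD, n = 17), higher in the top bin in 16 of 17 mice. By surface CD5, which reflects the strength of TCR signaling, Hivep3 went from 45.0 ± 26.7 to 182 ± 80.0 CPM, higher in 17 of 17 mice. The steepest part of both courses lay in the upper bins: by CD69 the 5 means of Hivep3 were 49.2, 54.3, 86.5, 119 and 185 CPM.

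Hivep2 was higher at the top of both proteins too, going from 75.5 ± 27.4 to 158 ± 30.8 CPM by CD69 (17 of 17 mice) and from 70.7 ± 26.5 to 156 ± 30.3 CPM by CD5 (16 of 17). By CD69 its means were 75.5, 98.2, 125, 140 and 158 CPM, and by CD5 they levelled off in the upper bins, at 70.7, 108, 140, 147 and 156 CPM. Hivep1 was flat, from 18.5 ± 7.55 to 21.2 ± 8.32 CPM by CD69 (10 of 17) and from 17.9 ± 6.05 to 17.5 ± 7.67 CPM by CD5 (8 of 17). The median log2 ratio of top to bottom CD69 bin was 2.41 for Hivep3, 1.22 for Hivep2 and 0.20 for Hivep1. These ratios compare profiles, and no level of 1 gene is compared with that of another.

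**Figure D2:**
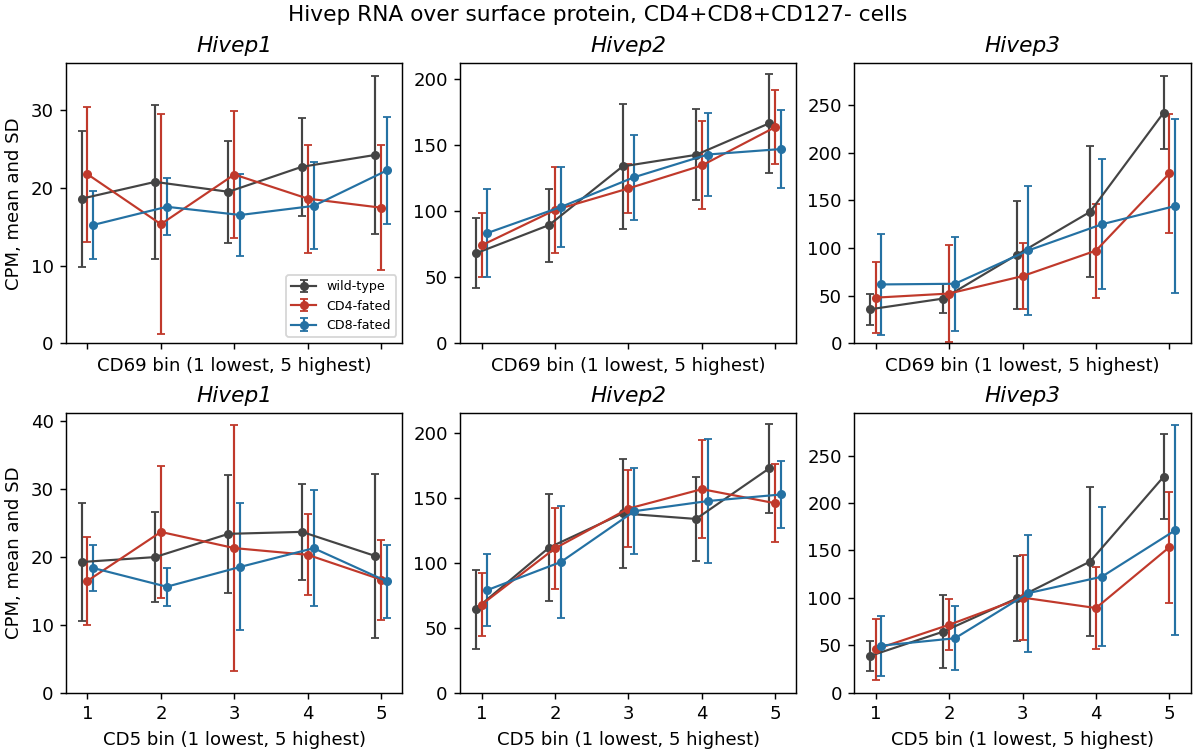
Level of each gene in CPM (y axis) over 5 bins of surface CD69 or CD5, lowest to highest (x axis), among CD4+CD8+CD127- cells. Points are the means of the 5 wild-type, 6 CD4-fated and 6 CD8-fated mice and bars their SD; by CD69 the wild-type mean of Hivep3 goes from 35.6 to 242 CPM and that of Hivep2 from 67.9 to 166 CPM, and the means of Hivep1 show no steady course.

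RNA clusters were named from marker genes by a rule set after the data were seen. At the main resolution, Hivep2 and Hivep3 had their highest mean in the same class and Hivep1 in another. The clusters were built on RNA of the same cells, so that their levels are a description. Among the named classes Hivep3 had its highest mean in signaled DP-like cells, at 256 ± 146 CPM (SD, n = 12 mice with at least 20 such cells). The 4 wild-type mice among them had 234, 249, 258 and 560 CPM, the last in the only unsorted mouse. Wild-type mouse 5 was absent, with 6 such cells, although its CD69+ DP gate held 367 cells. The part of lane and depth in class membership was not tested. The MHCII-/- mice had 251 and 257, the MHCI-/- mice 182 and 192, and the AND mice 127 and 75.0 CPM. OT-I mouse 1 had 527 CPM and OT-II mouse 1 had 162 CPM, from 98 and 31 cells. The OT-I value turned on the clustering, since at a finer resolution this mouse had 139.8 CPM over 346 signaled DP-like cells. The order of classes turned with it: the finer signaled DP-like mean was 238 ± 128 CPM (n = 12), below the 300.5 CPM (n = 9) of a negative selection-like cluster, although in the 8 mice with both clusters the signaled DP-like level was higher in 6. Quiescent DP-like cells held 18.3 ± 18.9 CPM (n = 13), and the highest of them, OT-II mouse 2 with 72.7 CPM, was below the lowest signaled DP-like value, that of AND mouse 2.

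Hivep3 was also high outside DP cells. The DN-like cluster (CD4-CD8- progenitors, with Il2ra, Hes1 and Notch3 among its leading genes) had enough cells in 2 unsorted mice, at 202 CPM in wild-type mouse 5 and 291 CPM in OT-II mouse 2. At the finer resolution wild-type mouse 4 and OT-II mouse 1 also had DN-like cells, at 157 and 215 CPM. Treg-like cells, with Foxp3 and Tnfrsf4 among the leading genes, held 118 ± 51.6 CPM over 11 mice, and all 11 were at or above 63.1 CPM. The leading genes of this cluster also included Tnfrsf9 and Nr4a3, which are markers of the negative selection list. At the finer resolution, where a negative selection-like cluster stood apart, the Treg-like mean was 72.8 CPM, with values down to 42.7 CPM. Cycling-like cells held 65.5 ± 54.1 CPM (n = 17), and CD8 SP-like cells 26.4 ± 6.92 CPM (n = 8).

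Hivep2 shared the peak in signaled DP-like cells, at 198 ± 59.8 CPM (n = 12), but was broader. Treg-like cells had 128 ± 44.3 CPM (n = 11), quiescent DP-like cells 108 ± 35.4 CPM (n = 13) and gamma-delta T-like cells 106 ± 28.9 CPM (n = 6), and these 3 overlapped. All 6 mice of the gamma-delta T-like class were AND, OT-I or OT-II mice. The AND mice lacked Rag1, so that the class name rests on RNA markers alone. The lowest Hivep2 levels among T cells were in cycling-like (41.9 ± 17.6 CPM, n = 17) and CD8 SP-like cells (43.9 ± 10.2 CPM, n = 8). In DN-like cells, where Hivep3 was high, Hivep2 was at 56.4 and 72.1 CPM.

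Hivep1 had its highest levels in Treg-like cells, at 44.5 ± 32.4 CPM (n = 11, median 34.8), and in myeloid-like cells, at 38.5 ± 25.7 CPM (n = 11). The Treg-like mean rested in part on wild-type mouse 5, with 141 CPM from 21 UMIs, and the other 10 mice lay between 26.7 and 46.7 CPM. At the finer resolution the Treg-like mean was 42.7 CPM, and that of the negative selection-like cluster was 43.5 CPM (n = 9). Quiescent DP-like cells had 27.4 ± 6.18 CPM (n = 13) and signaled DP-like cells 16.7 ± 6.52 CPM (n = 12), the opposite order to that of Hivep2 and Hivep3. NKT-like and gamma-delta T-like cells, the latter from mice with a TCR transgene alone, were lowest, with 4.24 ± 5.13 and 7.70 ± 2.84 CPM. The NKT-like level rested on few counts, with a lowest value of 0 CPM. At the finer resolution no mouse had more than 8 Hivep1 UMIs in NKT-like cells.

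**Figure D3:**
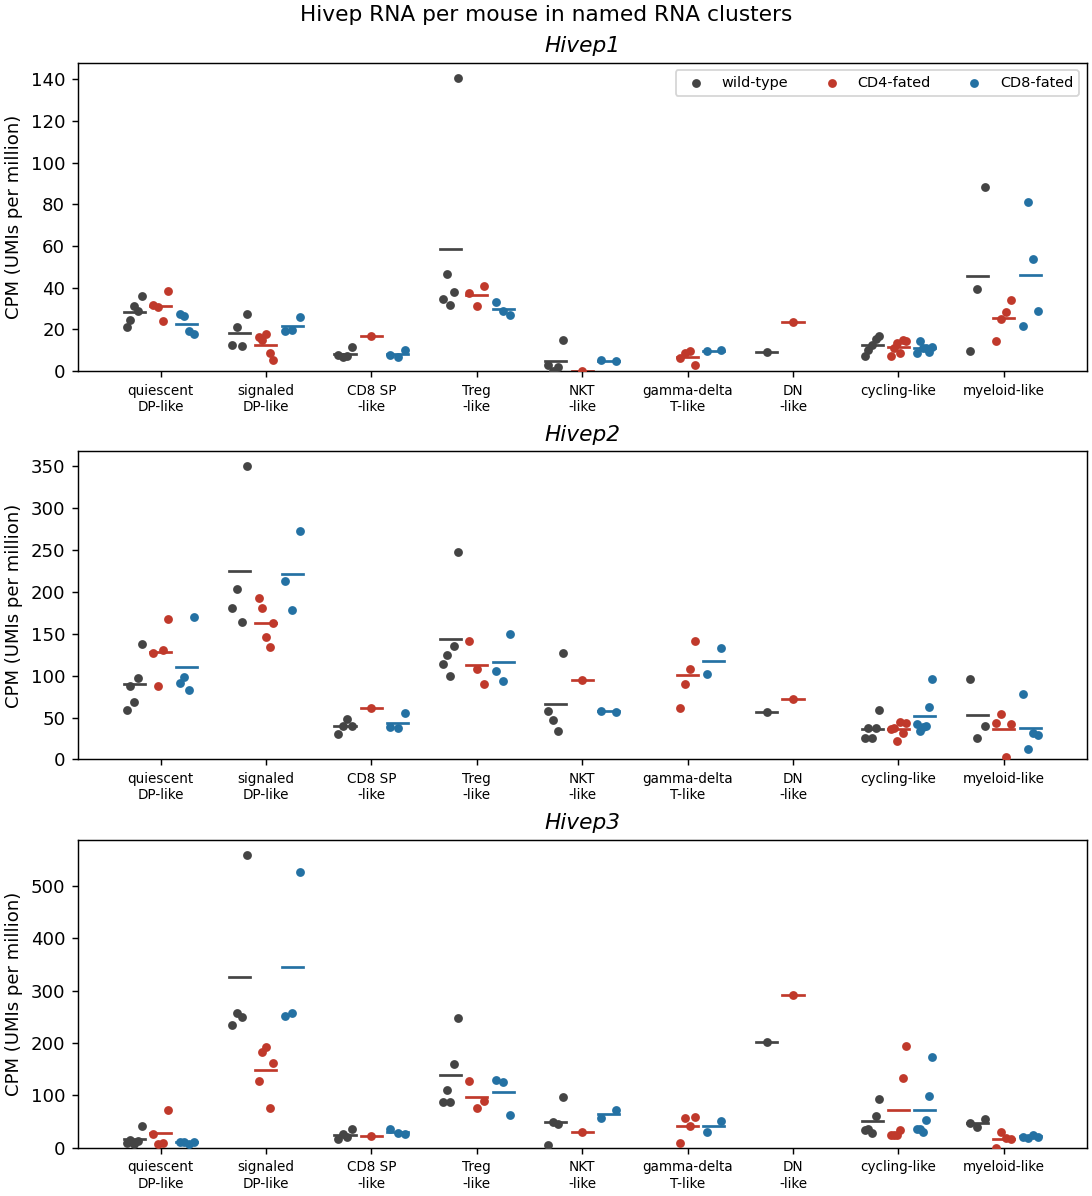
Level of each gene in CPM (y axis) in the marker-named cell classes (x axis). Each point is 1 mouse with at least 20 cells of the class, colored by wild-type, CD4-fated or CD8-fated group, and each bar is the mean of a group; over all mice, at this clustering resolution, the Hivep3 means are highest in signaled DP-like cells (256 CPM) and DN-like cells (247 CPM), Hivep2 in signaled DP-like cells (198 CPM) and Hivep1 in Treg-like cells (44.5 CPM).

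The share of cells with at least 1 UMI was compared after each cell was thinned to 2000 UMIs. Hivep3 was seen in 35.9% of DN-like cells (95% exact binomial interval 31.0 to 40.9%), in 32.8% of signaled DP-like cells (31.5 to 34.2%) and in 2.77% of quiescent DP-like cells (2.42 to 3.16%). Unthinned shares were 51.0%, 44.5% and 4.05%, at median depths of 4016.5, 3601 and 2139 UMIs. In myeloid-like cells, set beside these as non-lymphoid cells, the thinned share was 6.96% (4.84 to 9.64%) and the unthinned share 10.3%, at 3439 UMIs. The myeloid-like share is no measured background, since the quiescent DP-like share lay below it at 2000 UMIs and, at 2.42%, inside its interval (1.84 to 4.84%) at 1000 UMIs.

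For Hivep2 the thinned shares were 32.1% in signaled DP-like, 17.1% in quiescent DP-like and 10.3% in myeloid-like cells (unthinned 49.0, 19.7 and 16.2%). For Hivep1 the Treg-like share was 7.90% (unthinned 15.8%, median 4926 UMIs), the quiescent DP-like share 5.18% and the signaled DP-like share 3.30%, against 6.75% in myeloid-like cells. Hivep1 shares in DP cells were not above the myeloid-like share at 2000 UMIs, but at 1000 UMIs the quiescent DP-like share (2.90%) was above the myeloid-like share (2.23%, 1.19 to 3.78%) and inside its interval. Thinning left out 6463 of 14299 quiescent DP-like cells and 268 of 5111 signaled DP-like cells, and the intervals cover counting error alone.

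Over the 19 RNA clusters with at least 200 cells, the profiles of the 3 genes were not alike. Pearson's r of log2(CPM + 1), a description over clusters that share mice, lanes and depth, was 0.45 for Hivep1 with Hivep2, 0.29 for Hivep2 with Hivep3 and 0.12 for Hivep1 with Hivep3. Among 10371 genes, the profiles most like Hivep1 were those of Zbtb21 (r = 0.87), Lactb2 (0.82), Vav2 (0.81), Rab33b (0.81) and Zfp609 (0.81). Those most like Hivep2 were Jarid2 (0.90), Arap2 (0.88), Ttpal (0.88), Ets1 (0.87) and Dpy19l3 (0.87), and those most like Hivep3 were Nol10 (0.81), Gtf3c6 (0.78), Polr3d (0.78), Htt (0.76) and Gtf2e1 (0.74).

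The comparison of CD4-fated with CD8-fated mice asked whether a member differed between lineages within a gate. The CD69+CD127+ DP gate is not an equal stage for both, since the study places such cells with high TCRβ on the path of CD8-fated cells. TCRβ was not used for the gate here, which is therefore broader than that of the study. It held 38 to 140 cells in the AND and MHCI-/- mice, 146 and 618 in the OT-II mice and 334 to 981 in the CD8-fated mice. No member passed in any of the 5 gates by edgeR (quasi-likelihood test with genotype family as covariate) or by DESeq2. Few genes did: 0.0105% of genes tested passed in CD69- DP, 0.131% in CD69+ DP, 1.52% in CD69+ CD4+CD8lo, 0.25% in CD69+CD127+ DP and 4.73% between CD4 mature and CD8 mature cells. Of the 15 tests of members, an unadjusted p under 0.05 was reached by Hivep1 in CD4+CD8lo, Hivep3 in CD69+CD127+ DP, and Hivep1 and Hivep2 in mature cells. Of all genes tested, 13.9%, 7.04% and 21.9% reached it in these 3 gates.

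In the fits over all families, Hivep3 had its largest lineage difference in CD69+CD127+ DP. The CD4-fated mice had 106 and 62.7 CPM (AND), 166 and 153 CPM (MHCI-/-) and 117 and 183 CPM (OT-II). The CD8-fated mice had 48.9 and 38.1 CPM (F5), 84.2 and 90.1 CPM (MHCII-/-) and 55.4 and 116 CPM (OT-I). Within each family both CD4-fated mice were above both CD8-fated mice, though over all families the groups overlapped. In the OT family this order rested on 117.1 CPM in OT-II mouse 1 against 116.3 CPM in OT-I mouse 2. The share of all genes with such an order is not given here. The means were 131 ± 44.6 and 72.2 ± 29.7 CPM (SD, n = 6 and 6), a log2 difference of 0.77 ± 0.21 (adjusted p = 0.218 by edgeR).

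Whether this difference passed changed with the processing and with 1 mouse. The adjusted p was 0.0117 with no filter on low counts and 0.0410 without OT-I mouse 2, where the difference was 0.96. With the replicate number as a block in place of family it was 0.0115 by edgeR. That block was not the main choice, since same-numbered mice did not deviate together in every family. Within ZRS07 alone, with 6 mice, the difference was 0.81 ± 0.13 (adjusted p = 0.00443 by edgeR, where 240 of 8496 genes passed). Within ZRS08 with 4 mice it was 0.65 ± 0.49 (adjusted p = 0.9998). ZRS06 held 1 mouse of each lineage and gave no test of its own. By family the differences were 0.87 ± 0.43 (AND and F5), 0.84 ± 0.36 (MHC-deficient) and 0.61 ± 0.37 (OT).

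The 12 markers of other cell types summed to between 166 and 3855 CPM in the CD4-fated and between 159 and 653 CPM in the CD8-fated mice of this gate, with 3 to 10 of the 12 at 0, and the highest value was that of OT-II mouse 1. Without cells of clusters named as other types, the difference was 0.85 (adjusted p = 0.0862 by edgeR). Among genes of known roles in the choice of lineage, Runx3 was lower (−2.14 ± 0.28, adjusted p = 0.00391) and Gata3 (1.22 ± 0.22, adjusted p = 0.0378) and Zbtb7b (4.40 ± 0.81, adjusted p = 0.0378) were higher in CD4-fated cells of this gate.

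In the earlier gate, CD69+ DP, Hivep3 differed by 0.33 ± 0.30 (adjusted p = 1.00 by edgeR), with 43.5 to 250 CPM in CD4-fated and 35.9 to 202 CPM in CD8-fated mice. This small difference rested on AND mouse 1, since without it the value was −0.0030. A test of whether the lineage difference grew from CD69+ DP to CD69+CD127+ DP gave 0.55 ± 0.19 for Hivep3 (adjusted p = 0.805 by edgeR, where 0.0101% of genes passed), and 0.11 ± 0.14 for Hivep2 and 0.08 ± 0.32 for Hivep1. In CD69- DP the differences were 0.13 ± 0.24 for Hivep1, −0.04 ± 0.15 for Hivep2 and −0.16 ± 0.19 for Hivep3. In CD4+CD8lo, with 11 mice, Hivep1 differed by 0.63 ± 0.28 (adjusted p = 0.337 by edgeR) and by 1.60 ± 0.94, 1.01 ± 0.32 and 0.05 ± 0.34 in the AND and F5, MHC-deficient and OT families. F5 was represented in this gate by mouse 2 alone, with 28 cells and 2 Hivep1 UMIs, and cells of other types made up 75% of these cells and 94.0% of their RNA. Within ZRS07 it was 1.12 ± 0.21 (adjusted p = 0.0674 by edgeR). Hivep3 at this gate was at 0.09 ± 0.37, −0.52 ± 0.22 and 0.61 ± 0.24 in the 3 families (adjusted p = 0.123 by edgeR for a difference between families).

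**Figure D4:**
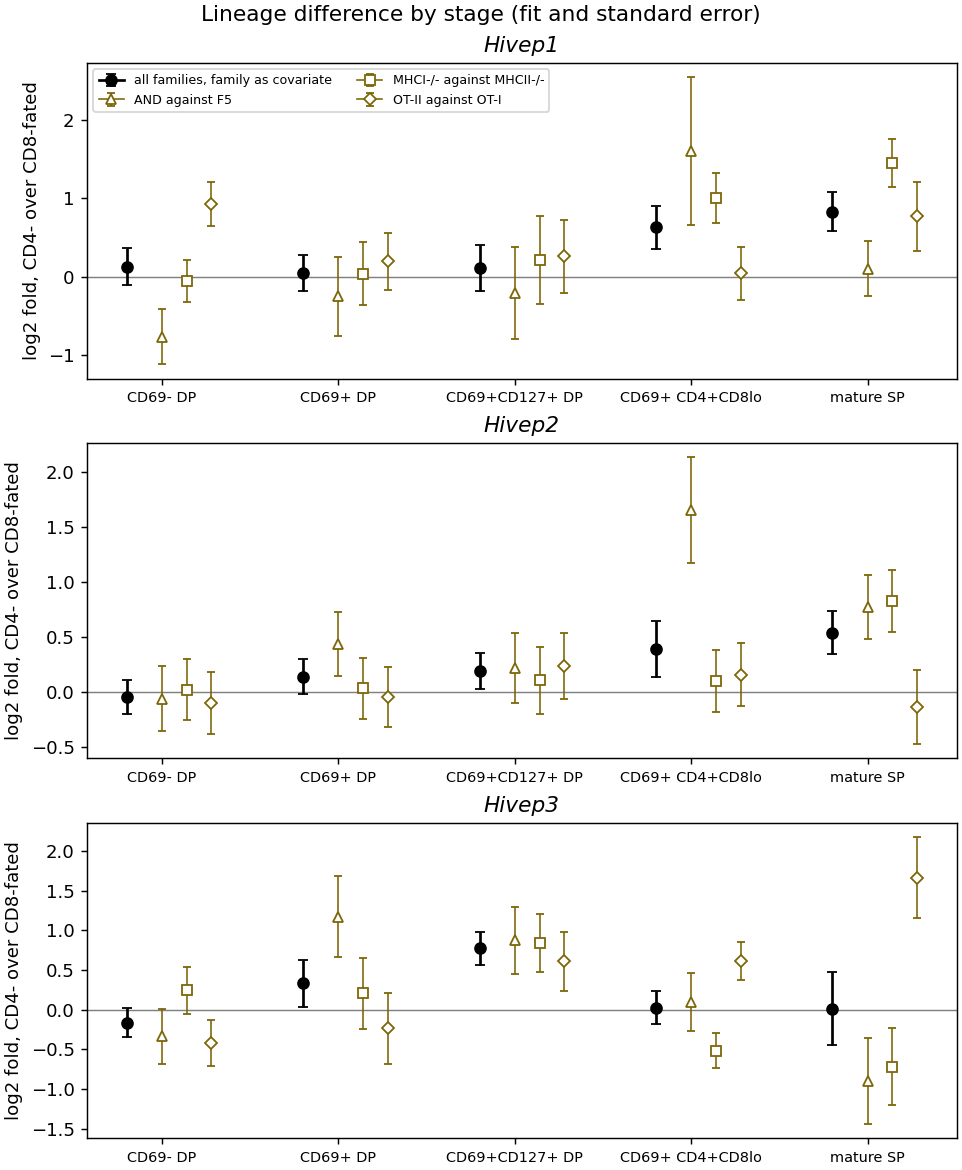
Log2 difference between CD4-fated and CD8-fated mice (y axis) for each gene in each of 5 gates (x axis). Black points are the differences fitted over all families, open symbols those of each family (AND against F5, MHCI-/- against MHCII-/-, OT-II against OT-I), and bars their SE; Hivep3 in CD69+CD127+ DP stands at 0.77 ± 0.21 and Hivep1 in mature cells at 0.83 ± 0.25, and no adjusted p of the joint fits is under 0.05.

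In mature cells, CD4 mature cells of CD4-fated mice were set against CD8 mature cells of CD8-fated mice. Hivep1 was at 9.15 to 18.1 CPM (mean 14.01) in the former and at 5.13 to 10.8 CPM (mean 8.41) in the latter, and the ranges overlapped. The difference was 0.83 ± 0.25 (adjusted p = 0.0755 by edgeR), and the adjusted p went down to 0.0413 without F5 mouse 2. Hivep1 also passed with no filter, with pooled or raised thresholds and without cells of other types. By family it was 0.11 ± 0.35 (AND and F5), 1.45 ± 0.31 (MHC-deficient) and 0.77 ± 0.44 (OT). Hivep2 had a mean of 66.5 CPM against 50.2 CPM, a difference of 0.54 ± 0.20 (adjusted p = 0.134), with an adjusted p of 0.0305 without OT-I mouse 2. By family it was 0.77, 0.83 and −0.14 in the AND and F5, MHC-deficient and OT families. Within ZRS07, where 1211 of 9455 genes passed, Hivep2 passed (0.84 ± 0.17, adjusted p = 0.0242 by edgeR) and Hivep1 did not (1.06 ± 0.33, adjusted p = 0.0755). Within ZRS08 the Hivep2 value was −0.11 ± 0.43.

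The Hivep3 values in mature cells had different signs by family, though the test of a difference between families did not pass. The differences were −0.90 ± 0.54 in the AND and F5 family, −0.72 ± 0.48 in the MHC-deficient family and 1.67 ± 0.51 in the OT family, and their joint value was 0.01 ± 0.46 (adjusted p = 0.997 by edgeR). The test between families had an adjusted p of 0.130 by edgeR, where 2.34% of genes passed. In the CD4 mature gate of the OT-II mice, 51.9% and 97.9% of the Hivep3 UMIs came from cells of clusters named as other types, and without them the level went from 92.4 to 58.8 CPM in mouse 1 and from 217 to 9.87 CPM in mouse 2. In the same comparison of mature cells 4 of the 9 tested genes of the Runx, Gata3 and ThPOK list passed, led by Zbtb7b at 8.76 ± 0.42 and Runx3 at −2.06 ± 0.31. In the NF-κB list 1 gene of 14, Birc3, passed. Of all genes tested in this comparison, 4.73% passed.

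Wild-type mice hold both mature lineages in the same thymus and the same lane, which allows a paired comparison. Hivep2 was at 65.0, 68.4, 53.4, 63.7 and 85.7 CPM in CD4 mature and at 32.2, 37.1, 44.5, 31.0 and 65.0 CPM in CD8 mature cells of mice 1 to 5. It was higher in CD4 cells of 5 of 5 mice, by 0.73 ± 0.15 on the log2 scale (adjusted p = 0.00623 by edgeR with mouse as a block, where 22.3% of genes passed). Without the mouse as a block the difference was 0.67 with an adjusted p of 0.132. Hivep1 differed by 0.23 ± 0.27 (adjusted p = 0.597), with the CD4 value higher in 2 of 5 mice.

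Hivep3 went the other way in these mice, and by less. It was at 14.5, 15.9, 22.7, 36.0 and 65.9 CPM in CD4 mature and at 21.4, 22.4, 23.9, 58.5 and 89.0 CPM in CD8 mature cells, higher in CD8 cells of 5 of 5 mice (−0.45 ± 0.14, adjusted p = 0.0415 by edgeR). In the unsorted mice 4 and 5, cells of other types made up 38.2% and 45.6% of the CD8 mature gate, against 4.64 to 6.52% in the sorted mice. Without such cells the means were 25.7 ± 15.4 and 26.7 ± 6.59 CPM, and the difference was −0.24 with an adjusted p of 0.418. The adjusted p was also above 0.05 without mouse 1 (0.0959), mouse 2 (0.0814), mouse 4 (0.143) or mouse 5 (0.101), and with DESeq2 (0.330).

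**Figure D5:**
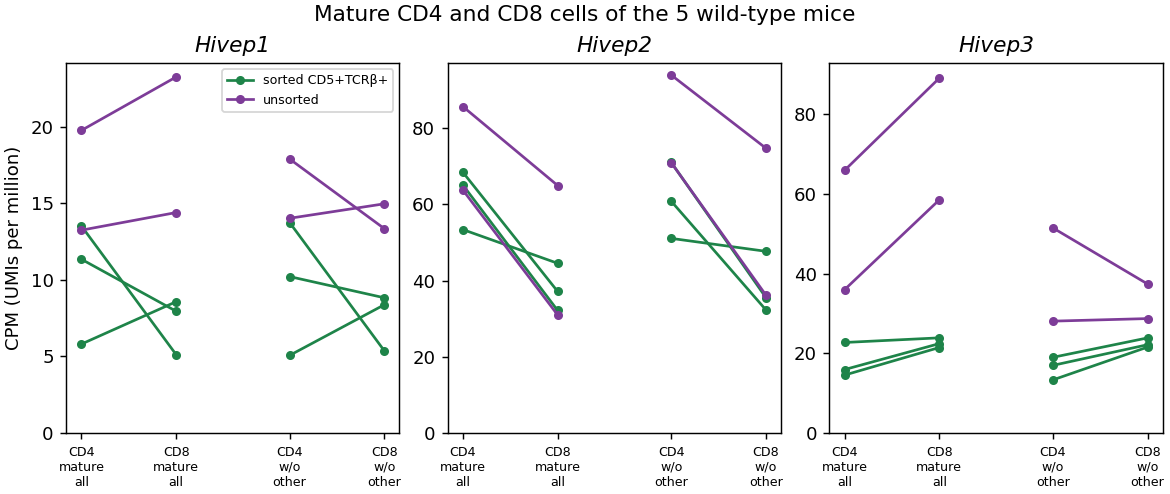
Level of each gene in CPM (y axis) in CD4 mature and CD8 mature cells (x axis) of the 5 wild-type mice. Lines join the 2 gates of a mouse, green for sorted and purple for unsorted mice, with all cells on the left of each panel and without cells of other types on the right; with all cells, Hivep2 is higher in CD4 mature and Hivep3 in CD8 mature cells of all 5 mice, and without the other types 1 of the 2 unsorted mice has Hivep3 higher in CD4 mature cells.

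Related genes differed in the same wild-type comparison. Of the TCR response list, 9 of 19 tested genes were higher in CD4 mature cells and 1 was lower, with a median of 0.74 against 0.0021 over all genes, of which 10.3% were higher and 11.99% lower. Itm2a (1.67 ± 0.14), Dusp5 (1.95 ± 0.24) and Cd5 (1.31 ± 0.20) were among those higher, and Myb (−1.35 ± 0.28) was lower. Of the NF-κB list, 4 of 14 were higher and none lower, with Rel at 0.92 ± 0.17, Birc3 at 0.78 ± 0.17, Bcl3 at 1.13 ± 0.26 and Nfkbia at 0.48 ± 0.15. Of the TGF-β, BMP and SMAD list, 6 of 13 were higher and none lower, with the co-repressor genes Skil and Ski at 0.96 ± 0.16 and 0.95 ± 0.18, Smad7 at 0.90 ± 0.19 and Tgfbr2 at 1.07 ± 0.23. Zbtb7b (5.17 ± 0.37) and Runx3 (−1.88 ± 0.21) had the differences of the 2 lineages.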

How the data were processed

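Gene expression and antibody libraries from 10x Genomics 3′ v3 captures were processed by the authors with Cell Ranger 3.1.0 on mm10 (GRCm38), and the deposited values were raw counts, with 1 column of RNA and antibody UMIs for every barcode. The deposited files of pooled replicates were not used here, because their totals equal the sums of the single lanes.

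Barcodes were kept with at least 200 genes, at most 15% mitochondrial counts, 1000 to 10000 antibody UMIs and at least 70 antibodies detected. Doublets were called in each lane from synthetic pairs of its cells, at 0.8% per 1000 barcodes, and 2906 (4.03%) were removed. Antibody counts were centred log-ratio transformed, and CD4, CD8a, CD69 and CD127 were split at Otsu thresholds in each lane. UMIs were summed per mouse and gate (at least 10 cells) and the sums were compared by edgeR 4.0.16 (R 4.3.3, with TMM, filterByExpr, glmQLFit), with Benjamini-Hochberg adjustment over all genes and a threshold of 0.05. DESeq2 1.42.0 was an alternative. In the lineage fits the covariate was genotype family (AND with F5, OT-II with OT-I, MHCI-/- with MHCII-/-), and a mouse block was used in the stage steps and the wild-type comparison. The AND and F5 mice made up the thinnest gates: F5 mouse 1 had 9 cells in CD4+CD8lo and was left out there. The tests were also run on simulated data, whose outcome is not given here.

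Clusters came from Leiden clustering (leidenalg 0.10.2, resolution 1) of 30 principal components of 2000 genes. All lanes were clustered together with no correction for lane or experiment. A name required at least 1 marker of the class among the top 10 genes, at least 3 markers detected at 10 CPM and a mean z-score above 1. These conditions were applied to the class with the most markers among the top 10 genes. They alone did not give a name, and that class also had to have the highest mean z-score in the cluster. A cluster of 7448 cells stayed unnamed, although the interferon list had 2 markers in its top 10 (Ifit1 and Ifit3), 6 detected and a mean z-score of 1.46. Its highest-scoring class was CD4 SP, and at resolution 1 no cluster was named CD4 SP-like. The class comparisons therefore hold no such class. The naming rule was set after the data were seen, and 8 of 20 clusters stayed unnamed. The 3 genes and all gene lists were chosen with earlier results of these data known. From each list up to 4 genes with the smallest adjusted p were named, and for each member the 5 genes with the most similar profile over clusters. Intervals are 95% exact binomial. Same-numbered mice of a family did not deviate together in every family, so the replicate number was not treated as a pairing. Positions are from GENCODE on GRCm38, promoter sequences from RefSeq.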

Additional observations from a re-analysis of the deposited data

Results flagged for a closer look

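In 8 of the 96 groups of 4 to 10 mice that were examined, 1 mouse lay far from the rest by Dixon's criterion, where chance alone gives about 1 group in 20. Wild-type mouse 5, which had the shallowest lanes, gave 3 of these values. They were Hivep1 in Treg-like cells (141 CPM, the other wild-type mice 31.5 to 46.7), Hivep2 in Treg-like cells (248 CPM, the others 100.04 to 135) and Hivep3 in quiescent DP-like cells (40.9 CPM, the others 6.22 to 14.03). Wild-type mouse 4 gave Hivep3 in signaled DP-like cells (560 CPM, the others 234 to 258) and Hivep1 in CD8 SP-like cells (11.7 CPM, the others 6.81 to 7.55). It was the only unsorted mouse in both of these groups. OT-I mice gave Hivep2 in CD69+CD127+ DP for mouse 2 (135 CPM, the other CD8-fated mice 94.7 to 100.5) and Hivep3 in quiescent DP-like cells for mouse 1 (6.38 CPM, the others 10.9 to 11.7). MHCI-/- mouse 2 gave Hivep1 in the CD8 mature gate (40.2 CPM from 6 UMIs in 29 cells, the other CD4-fated mice 2.85 to 10.7). None of the 18 tests of a difference between families or stages passed for a member by edgeR.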

How the results depend on the processing

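The stage calls of Hivep1 and Hivep2 kept their direction and side of the threshold in all 110 values of these genes with 1 mouse left out and under every alternative, except that uncalled Hivep1 changed sign at CD69+ DP over CD69- DP without cells of other types (−0.19) and at CD4+CD8lo over CD69+ DP with library size in place of TMM (−0.095). Genes called in the 4 stage steps were 2910, 1482, 448 and 2032 with no replicate block, and 2458 at the last step in wild-type mice alone. The 60 alternative levels over cell types moved by less than the spread between mice, except that erythrocyte-like cells, with 1 mouse and no spread, did not move. The cause was not tested for any change below.

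In the wild-type comparison of mature cells, Hivep2 lost its call with no replicate block (0.67). Hivep3 lost it with no filter (−0.45), DESeq2 (−0.46), thresholds pooled by experiment (−0.43), thresholds lowered (−0.34), no cells of other types (−0.24) and no replicate block (−0.57). With 1 mouse left out it ran from −0.53 to −0.39, and Hivep1 from −0.039 to 0.34. Genes called were 1053 with DESeq2, 222 with no replicate block and 1372 to 2093 with 1 mouse left out (1372 without mouse 5).

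Between lineages, Hivep3 in CD69+CD127+ DP passed with no filter (0.76) and with the replicate block in place of family (0.81, adjusted p = 0.0115 by edgeR), and ran from 0.66 to 0.96 with 1 mouse left out. Hivep1 in mature cells passed with no filter (0.81), pooled thresholds (0.90), raised thresholds (0.92) and no cells of other types (0.98), and ran from 0.66 to 0.97 with 1 mouse left out, Hivep2 from 0.42 to 0.68. Hivep3 in mature cells changed sign with no filter (−0.012), library size (−0.015), raised thresholds (−0.18) and no cells of other types (−0.28), and ran from −0.35 to 0.24.

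Uncalled values near 0 changed sign elsewhere. These were in CD69- DP Hivep2 with lowered thresholds (0.026) and Hivep3 without cells of other types (0.22). In CD69+ DP they were Hivep1 with raised (−0.38) and lowered thresholds (−0.025) and without cells of other types (−0.080). In CD4+CD8lo they were Hivep3 with library size (−0.11), DESeq2 (−0.011), pooled thresholds (−0.029) and no family covariate (−0.054), and in CD69+CD127+ DP Hivep1 with raised thresholds (−0.0019). With 1 mouse left out, Hivep1 ran from −0.035 to 0.28 and Hivep2 from −0.13 to 0.045 in CD69- DP, Hivep1 from −0.15 to 0.19 and Hivep3 from −0.0030 to 0.56 in CD69+ DP, Hivep3 from −0.18 to 0.15 in CD4+CD8lo, and Hivep1 from −0.025 to 0.27 in CD69+CD127+ DP.

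Genes called between lineages moved most. In CD69- DP they were 108 with no filter, 3 with library size, 4 with DESeq2, 3 with pooled, 2 with raised and 0 with lowered thresholds, 2 without cells of other types, 0 with no family covariate and 0 with the replicate block. In CD69+ DP they were 191 with no filter, 28 with DESeq2, 7 with lowered thresholds, 0 with no family covariate and 19 with the block. In CD4+CD8lo they were 698 with no filter, 405 with DESeq2, 61, 313 and 71 with pooled, raised and lowered thresholds, 431 without cells of other types, 48 with no family covariate and 33 with the block. In CD69+CD127+ DP they were 239 with no filter, 71 with DESeq2, 91 with pooled and 11 with lowered thresholds, 9 with doublets kept, 47 without cells of other types, 3 with no family covariate and 46 with the block. In mature cells they were 1299 with no filter, 747 with DESeq2, 708 with raised and 179 with lowered thresholds, 704 without cells of other types and 159 with no family covariate. With 1 mouse left out the ranges were 0 to 4, 4 to 13, 19 to 361, 8 to 44 and 170 to 604 in the same order. Hivep1 had the fewest UMIs of the 3 genes in each gate.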

Other observations

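Hivep3 was also high in CD4-CD8- and cycling cells of some mice, which the comparisons above do not cover. In cells negative for CD4 and CD8 by protein it was at 111 and 144 CPM in the unsorted wild-type mice and at 24.7 to 39.0 CPM in the sorted ones, which had 37 to 52 such cells. OT-II mice had 136 and 227 CPM there, and AND mice 16.8 and 38.4 CPM. In cycling-like cells the OT-II mice had 133 and 195 CPM and the OT-I mice 98.1 and 173 CPM, against 28.8 to 34.9 CPM in sorted and 60.6 and 92.3 CPM in unsorted wild-type mice, which were also the wild-type mice of ZRS08. Hivep1 in cycling-like cells ran from 7.03 to 16.97 CPM over all 17 mice.

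The CD4 mature gate of the OT-II mice, broken down after its values were seen, held Hivep3 unevenly over clusters. In OT-II mouse 1, the 61 cells of the largest cluster had 0 Hivep3 UMIs in 303846 RNA UMIs, which allows up to 9.87 CPM (3 counts), whereas 9 cycling-like cells had 28 UMIs (198 CPM) and 17 cells of an unnamed cluster had 25 UMIs (193 CPM). In OT-II mouse 2, 40 cells of the largest cluster had 1 UMI (10.1 CPM), 8 cycling-like cells had 31 UMIs (435 CPM) and 8 DN-like cells had 16 UMIs (448 CPM). At a finer clustering resolution a negative selection-like cluster, with Hivep3 at 300.5 ± 156 CPM and Hivep2 at 196 CPM (n = 9 mice), stood beside a signaled DP-like cluster with 238 CPM of Hivep3 and 196 CPM of Hivep2 (n = 12). In the 8 mice with both, Hivep3 was higher in signaled DP-like cells of 6 and Hivep2 in those of 7, whereas Hivep1 was higher in negative selection-like cells of 8 (mean 34.9 against 15.9 CPM).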
